A study of Mus musculus with 98 samples.

Results

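Counts of 8 mouse genes of hepatic glucose metabolism were followed in livers that had been repopulated with human or with murine hepatocytes. The genes are Pck1, G6pc, Slc2a2, Pklr, Gys2, Ppp1r3b, Ppp1r3c and Igfbp1, taken by symbol from the 19689 mouse rows of the liver table. All 8 were found and all 8 passed the filter on low counts, among 14977 mouse genes tested in liver. The series holds 98 RNA sequencing libraries, taken from liver, from skeletal muscle and from a pair of hypothalamic nuclei, the suprachiasmatic (SCN) and the arcuate (ARC), and its title asks how clocks in hepatocytes take part in setting the phase of daily rhythms. All libraries came from male FRGN mice of 10 weeks, which lack Fah, Rag2 and Il2rg (Fah-/-, Rag2-/-, Il2rg-/-) on a non-obese diabetic strain background. In the Hu arm the liver had been repopulated with human hepatocytes by splenic injection, and in the Mu arm, the control, with murine hepatocytes. Both arms received nitisinone in cycles, an antibiotic mixture and drinking water with 3% dextrose, a sugar load that the controls share. Tissues were taken at zeitgeber time (ZT, hours from lights-on) 2, 6, 10, 14, 18 and 22. There were 2 Mu livers at each time, 3 Hu livers at ZT 2, 6 and 18, and 2 Hu livers at ZT 10, 14 and 22, so that 12 Mu livers stood against 15 Hu livers. The labels number the replicates but do not say in so many words that each is a separate mouse, so p-values measure the spread between these libraries.

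The liver makes glucose by gluconeogenesis and from stored glycogen during fasting, and takes glucose up and stores or burns it after a meal. Pck1 (phosphoenolpyruvate carboxykinase) and G6pc (the catalytic subunit of glucose-6-phosphatase) encode the first committed and the last step of glucose production, and glucagon and insulin are known to drive their transcription in opposite directions. Slc2a2 encodes GLUT2, the main glucose transporter of hepatocytes, Pklr the pyruvate kinase of liver and red cells, and Gys2 the liver glycogen synthase. Ppp1r3b and Ppp1r3c encode glycogen targeting subunits that bring protein phosphatase 1 to glycogen and so favour its synthesis. Igfbp1 encodes a secreted binding protein of insulin-like growth factors, which hepatocytes are known to release when insulin is low.

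Promoter sequences are printed for G6pc, Pck1, Igfbp1 and Ppp1r3c, so that their motifs stand beside the levels that follow. Matches in Slc2a2 and Pklr are given in words only. RefSeq's table for GRCm38.p6 held windows for 6 of the 8 genes. Each is the 250 bases before the RefSeq transcript start, 5′ to 3′ on the strand of the gene. They lie at chr11:101367466-101367715 for G6pc, chr2:173152823-173153072 for Pck1 and chr11:7197537-7197786 for Igfbp1, all on the plus strand, and at chr19:36736605-36736854 for Ppp1r3c on the minus strand. Gene bounds given further below are from GENCODE, whose starts differ, so these windows run past the gene starts printed there. Capitals mark matches to the motifs searched on both strands.
G6pc: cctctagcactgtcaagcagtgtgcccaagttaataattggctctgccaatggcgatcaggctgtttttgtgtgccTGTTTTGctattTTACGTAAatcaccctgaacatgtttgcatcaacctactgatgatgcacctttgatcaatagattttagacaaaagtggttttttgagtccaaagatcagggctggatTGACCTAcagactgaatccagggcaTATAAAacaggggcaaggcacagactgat
Pck1: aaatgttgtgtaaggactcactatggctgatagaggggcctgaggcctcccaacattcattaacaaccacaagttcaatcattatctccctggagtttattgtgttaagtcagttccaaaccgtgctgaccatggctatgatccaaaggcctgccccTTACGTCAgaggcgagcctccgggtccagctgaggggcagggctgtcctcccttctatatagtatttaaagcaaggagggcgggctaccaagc
Igfbp1: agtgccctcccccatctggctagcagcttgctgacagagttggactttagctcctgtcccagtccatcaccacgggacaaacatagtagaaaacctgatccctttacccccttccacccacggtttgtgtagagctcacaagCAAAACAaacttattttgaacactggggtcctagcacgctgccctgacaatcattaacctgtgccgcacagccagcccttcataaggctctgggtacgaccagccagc
Ppp1r3c: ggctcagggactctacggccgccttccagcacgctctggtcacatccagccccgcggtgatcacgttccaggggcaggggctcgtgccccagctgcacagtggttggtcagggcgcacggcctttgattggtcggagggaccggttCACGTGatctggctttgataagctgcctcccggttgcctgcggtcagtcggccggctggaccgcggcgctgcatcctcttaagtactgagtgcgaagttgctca
In G6pc the capitals are, from left to right, the reverse strand of an insulin response element core (CAAAACA), a D-box (TTANGTAA), the reverse strand of a RORE core (TAGGTCA) and a TATA box (TATAAA). In Pck1 they are a cyclic AMP response element (TNACGTCA) that ends 86 bases before the start, in Igfbp1 an insulin response element core on the sense strand that ends 102 bases before it, and in Ppp1r3c an E-box (CACGTG) that ends 99 bases before it. No 2 of these matches overlap. Of 32851 mouse windows of this length, 5.56% held the insulin response element core, 2.52% the cyclic AMP response element, 6.02% the E-box, 2.06% the D-box, 2.23% the RORE core and 12.4% the TATA box. The 250-base window of Slc2a2 held none of these letters, and of the 2 windows of Pklr, 1 held the RORE core and the other the TATA box. A match describes letters and is no evidence of binding.

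The mouse rows of the 2 arms describe different cells. In Mu livers they hold the transplanted murine hepatocytes and the host's other liver cells, and in Hu livers only the host's cells, which are remaining hepatocytes that lack Fah and the cells between them. Total counts were 97.1 to 118.3 M in Mu livers (M, 1000000 counts) and 22.95 to 122.2 M in Hu livers. Counts in human rows made up 15.9 to 93.1% (median 58.7%) of the Hu liver libraries and at most 0.0204% of the Mu liver libraries, which left 7.70 to 87.9 M mouse counts per Hu liver. The study kept Hu mice with over 70% human repopulation, and 4 of 15 Hu livers had over 70% of counts in human rows, a share of RNA counts and not of cells. Mouse Fah, the deleted gene, stood at 442 to 687 CPM in Mu livers, where CPM are counts scaled to a library sum of 1000000 mouse counts, and at 6.23 to 35.8 in Hu livers. The hepatocyte marker Alb was present in both arms, with medians of 62039 CPM (Mu) and 58523 CPM (Hu). Its Hu values ran from 12029 to 74961 CPM, and in the edgeR fit it was lower in Hu livers (log2 difference -0.78, adjusted p = 0.0165). Of 11 tested hepatocyte markers, 10 were lower in Hu livers (median log2 difference -1.30), as were 6 of 6 pericentral (-3.41) and 6 of 6 periportal genes (-1.75). All 6 markers each of bile duct, endothelial and stellate cells and 4 of 6 Kupffer cell markers were higher. The summed level of the hepatocyte markers ran from 89225 to 114113 CPM in Mu and from 15400 to 102814 CPM in Hu livers, and that of the stellate markers from 357 to 586 and from 604 to 9471 CPM. In bulk tissue, fewer cells of a type and less RNA per cell cannot be told apart, and the part of this shift in the results below was not tested.

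The order of the 8 genes by level differed between the arms. Per kilobase of exon, the medians over 12 Mu livers ran from 222 CPM per kb for Pck1 through 143 for G6pc, 100.2 for Pklr, 60.4 for Slc2a2, 58.2 for Ppp1r3b, 52.9 for Ppp1r3c and 52.3 for Gys2 to 19.03 for Igfbp1. Over 15 Hu livers the order was Igfbp1 at 125 CPM per kb, Pck1 at 121, Ppp1r3c at 47.1, G6pc at 33.0, Slc2a2 at 31.6, Gys2 at 30.6, Pklr at 19.7 and Ppp1r3b at 6.27. Neighbours in either order had overlapping ranges over libraries. Igfbp1 was thus the last of the 8 in Mu livers and the first in Hu livers, and Ppp1r3b moved from the middle to the last place.

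**Figure D1:**
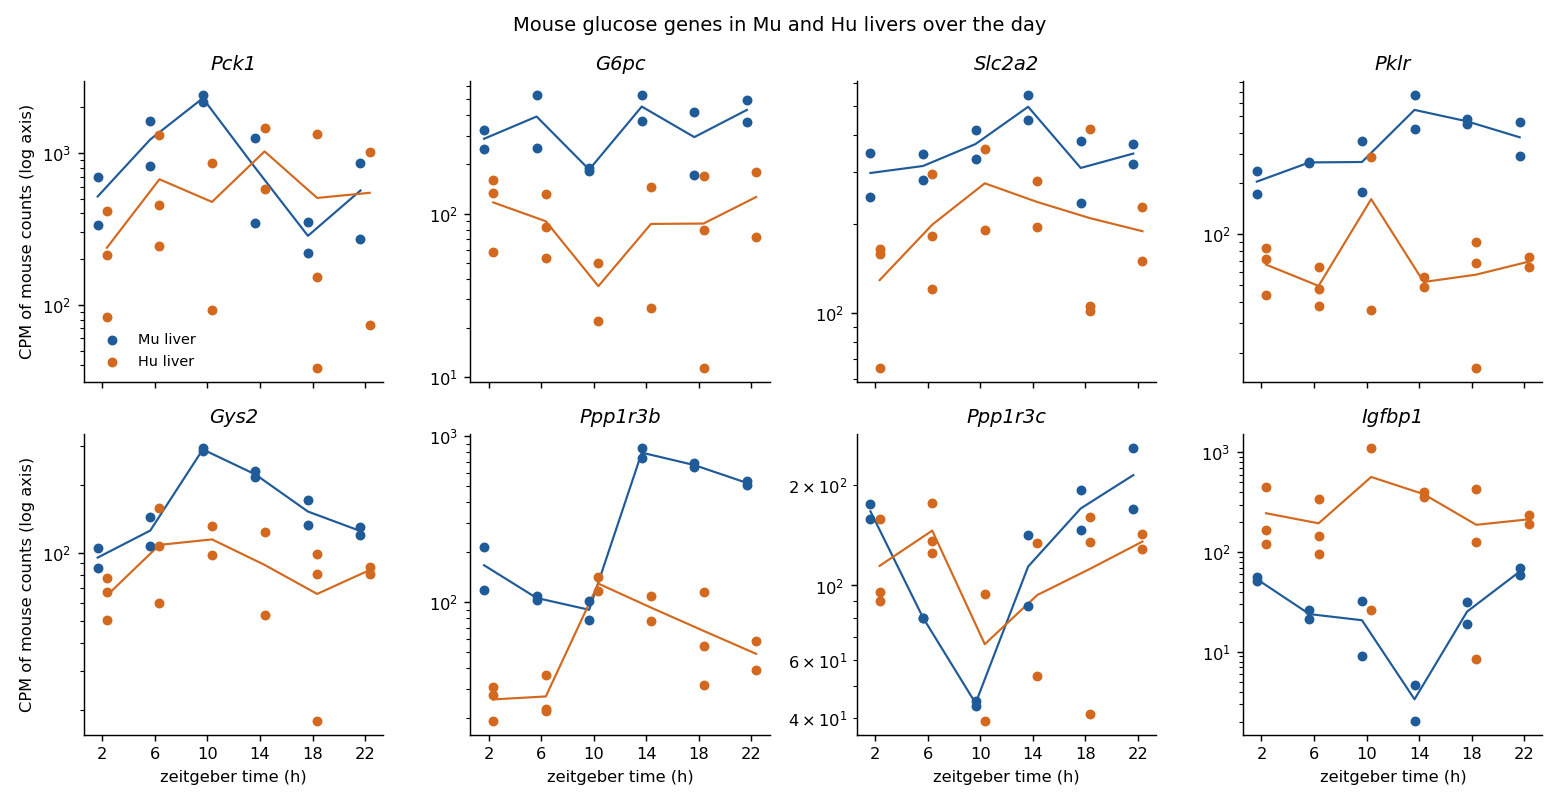
Level of each gene in CPM of mouse counts (log axis) against ZT in hours in liver. Points are single libraries, lines join the means per time, and Mu and Hu points are set slightly apart. G6pc, Pklr and Ppp1r3b lie lower in nearly all Hu livers, and Igfbp1 lies higher in 13 of 15. The Mu lines of Ppp1r3b, Ppp1r3c, Igfbp1 and Pck1 all span a wide range over the day, and of these Ppp1r3b and Ppp1r3c passed the rhythm test.

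Glucose production was represented by G6pc and Pck1. G6pc (chromosome 11, 101367561 to 101377903, plus strand, GRCm38) had 172, 346 and 533 CPM as its lowest, median and highest value in Mu livers and 11.4, 79.6 and 180 CPM in Hu livers. The level was lower than in every Mu liver in 14 of 15 Hu livers. The exception was the Hu liver of ZT 22 replicate 1, the highest of its arm at 180 CPM, which passed only the lowest Mu liver. In the fit over all mouse genes its time-averaged log2 level was -2.53 ± 0.38 (SE) in Hu relative to Mu livers, a 5.77-fold lower level (adjusted p = 1.91e-06).

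Pck1 (chromosome 2, 173153048 to 173159273, plus strand) had 220, 760 and 2422 CPM as its lowest, median and highest value in Mu livers and 38.4, 416 and 1466 CPM in Hu livers. The arms overlapped, with 6 of 15 Hu livers below the lowest Mu liver and none above the highest. The log2 difference of -1.06 ± 0.52 did not pass the threshold (adjusted p = 0.0647). It did pass without any 1 of 4 Hu livers, namely ZT 6, 14, 18 or 22 replicate 1, with a lowest adjusted p of 0.0195. Hu livers taken at the same hour differed widely, with 92.1 and 861 CPM at ZT 10 and 38.4, 153 and 1326 CPM at ZT 18. The standard deviation of log2 values within a time point was 2.09 in Hu and 0.85 in Mu livers for Pck1, against medians over all tested genes of 0.39 and 0.26.

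The transporter Slc2a2 and the kinase Pklr showed the same direction with different overlap. Slc2a2 (chromosome 3, 28697903 to 28731359, plus strand) had 236, 347 and 547 CPM as its lowest, median and highest value in Mu livers and 65.3, 182 and 421 CPM in Hu livers. Of the Hu livers, 11 of 15 lay below every Mu liver and the other 4 lay inside the Mu range. The log2 difference was -1.42 ± 0.24 (adjusted p = 1.19e-05). A gene antisense to Slc2a2 overlaps it, and since the counting strand is not stated, reads of both cannot be told apart with certainty.

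Pklr (chromosome 3, 89136142 to 89146784, plus strand) had 173, 324 and 670 CPM in Mu livers and 16.2, 63.9 and 288 CPM in Hu livers, again as lowest, median and highest. The arms were separate but for 1 library, the Hu liver of ZT 10 replicate 1, which held 288 CPM while the other 14 Hu livers stayed under every Mu liver. The log2 difference was -2.88 ± 0.31, a 7.37-fold lower level (adjusted p = 1.67e-08), and -3.23 without that library. The end of Pklr overlaps Hcn3 on the other strand, with the same limit on strand.

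Among the 3 glycogen genes the difference between the arms was smallest for Ppp1r3c and largest for Ppp1r3b. Gys2 (chromosome 6, 142422613 to 142473109, minus strand) had 85.6, 139 and 293 CPM as its lowest, median and highest value in Mu livers and 17.9, 81.2 and 158 CPM in Hu livers. Below the lowest Mu liver lay 8 of 15 Hu livers, and the log2 difference was -1.49 ± 0.24 (adjusted p = 4.16e-06).

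Ppp1r3b (chromosome 8, 35375739 to 35388139, plus strand) had the lowest relative level of all 8 genes in Hu livers. Its lowest, median and highest values were 77.9, 362 and 846 CPM in Mu and 19.2, 39.0 and 141 CPM in Hu livers. All 15 Hu livers were under the Mu median, and 11 of 15 were under the lowest Mu liver. The log2 difference was -3.03 ± 0.26, an 8.19-fold lower level (adjusted p = 3.14e-10). The gene Gm45469 overlaps the start of Ppp1r3b.

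Ppp1r3c (chromosome 19, 36731731 to 36736653, minus strand) was nearest to equal between the arms. It had 43.7, 144 and 258 CPM as its lowest, median and highest value in Mu livers and 39.2, 128 and 177 CPM in Hu livers. The ranges overlapped almost fully, and 2 of 15 Hu livers lay below the lowest Mu liver. The log2 difference was -0.70 ± 0.24 (adjusted p = 0.00934) after trimmed mean (TMM) scaling and -0.08 (adjusted p = 0.703) when mouse counts were only divided by their sum, so this call depends on the scaling.

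Igfbp1 (chromosome 11, 7197782 to 7202546, plus strand) was the single gene of the 8 that was higher in Hu livers. Its lowest, median and highest values were 2.02, 29.0 and 69.3 CPM in Mu and 8.57, 191 and 1108 CPM in Hu livers. Above every Mu liver lay 13 of 15 Hu livers. The exceptions were ZT 10 replicate 2 with 26.4 CPM and ZT 18 replicate 3 with 8.57 CPM, the 2 Hu livers with the highest human share. The log2 difference was 2.82 ± 0.53, a 7.07-fold higher level (adjusted p = 3.49e-05). The spread within a time point was 2.12 on the log2 scale in Hu livers and 0.64 in Mu livers.

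As a count, 7 of the 8 genes passed the test of level, of which 6 were lower and 1 was higher in Hu livers. That share has to be read against a background in which 79.5% of all tested genes passed, 37% lower and 42.5% higher. A decrease of over 2-fold was called for 5 of the 8 (G6pc, Gys2, Pklr, Slc2a2 and Ppp1r3b) and for 10.9% of all tested genes, and an increase of over 2-fold for Igfbp1 and for 24.4%. The median log2 difference was -1.46 over the 8 genes and 0.07 over all tested genes. Under the value of Ppp1r3b lay 1.24% of all tested genes, under that of Pklr 1.40%, under that of G6pc 1.88% and under that of Igfbp1 97.4%. For none of the 8 genes were all Hu livers below all Mu livers (3.67% of tested genes) or above them (26.2%).

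**Figure D2:**
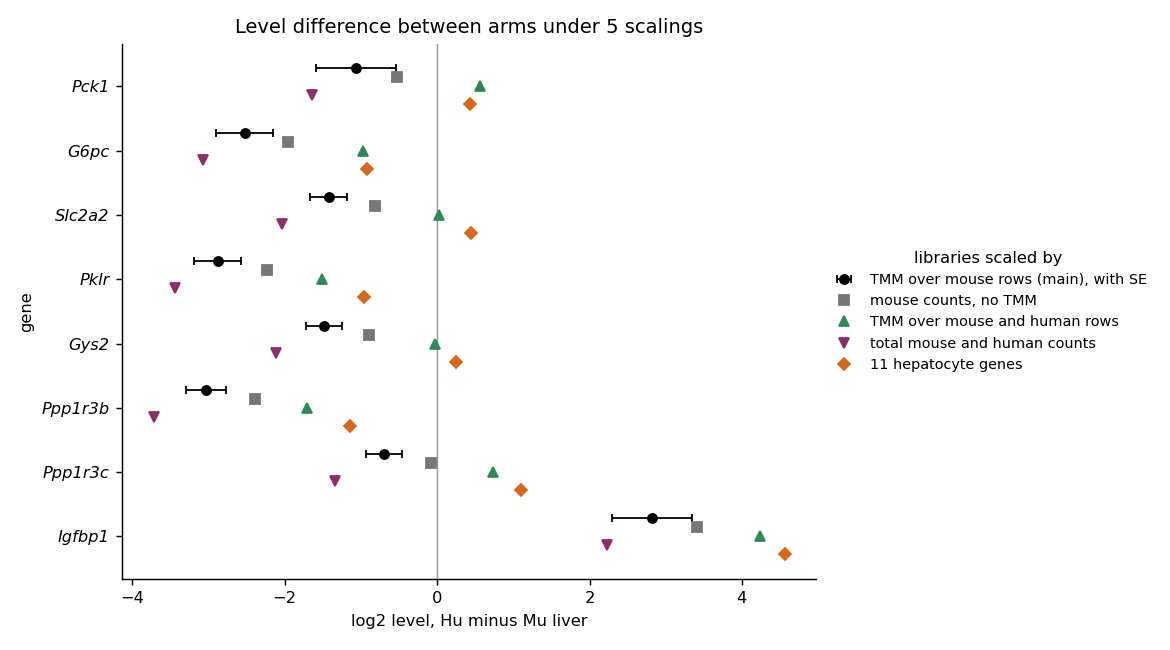
Log2 level in Hu minus Mu livers for each gene under 5 ways to scale the libraries, with the SE of the main fit as bars. G6pc, Pklr and Ppp1r3b stay left of 0 and Igfbp1 stays right of 0 under all 5, while Pck1, Slc2a2, Gys2 and Ppp1r3c cross 0 when the scale is TMM over mouse and human rows or the 11 hepatocyte genes, except that Gys2 stays at -0.02 under the first.

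Which genes count as lower depends on what the level is relative to. The median log2 difference of all tested genes was 0.07 in the main fit, 0.74 with mouse counts divided by their sum, -0.68 with total mouse and human counts, 1.35 with TMM over all rows and 2.25 with libraries scaled to 11 hepatocyte genes. The calls accordingly split into 53.5% higher in the main fit and 84.9%, 22.6%, 96.7% and 97.6% higher under those 4 scalings. Relative to the hepatocyte genes, G6pc (-0.92, adjusted p = 0.00171), Pklr (-0.97, 0.00512) and Ppp1r3b (-1.14, 0.000309) were still lower in Hu livers. On that scale Pck1, Slc2a2 and Gys2 had positive values of 0.43, 0.44 and 0.25 that did not pass (adjusted p = 0.281, 0.0904 and 0.199), Ppp1r3c was higher (1.11, 1.59e-05) and so was Igfbp1 (4.56, 2.90e-08). The scale is the geometric mean of the 11 genes. In the main fit Serpina1c, 1 of them, had a log2 difference of -6.23, and the rest ran from -2.28 to -0.30. Its weight in these values was not tested. With TMM over all rows, G6pc missed the threshold (-0.97, adjusted p = 0.0574), as did Gys2 (-0.02, 0.951), Slc2a2 (0.02, 0.957) and Ppp1r3c (0.73, 0.0615), while Pklr (-1.51, 0.000822) and Ppp1r3b (-1.71, 3.18e-05) were lower and Igfbp1 (4.24, 5.75e-07) was higher. A scaling moves all genes nearly alike, so values minus each scaling's median of all genes stay near the main ones by construction. Over 10 fits they ran from -3.39 to -3.00 for Ppp1r3b, from -3.22 to -2.76 for Pklr, from -3.18 to -2.33 for G6pc and from 2.31 to 2.92 for Igfbp1.

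A 24 h cosine passed the test in Mu livers for Ppp1r3b and Ppp1r3c, 2 of the 8 genes, where the background was 17.3% of all tested genes. At an unadjusted p under 0.05 the count was 4 of 8, against 31.7% of all genes. Ppp1r3b held 77.9 to 109 CPM in the 4 libraries of ZT 6 and 10 and 741 and 846 CPM at ZT 14, then 648 and 688 CPM at ZT 18, 509 and 534 CPM at ZT 22 and 119 and 214 CPM at ZT 2. The step between ZT 10 and ZT 14 was larger than any difference between libraries of one time. Its fitted amplitude, the log2 distance from mean to peak, was 1.72 ± 0.22 (jackknife SE over libraries) with a peak at ZT 17.9 ± 0.64 h (adjusted p = 0.000614).

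Ppp1r3c had its trough where Ppp1r3b began to climb, at 43.7 and 45.1 CPM at ZT 10. It held 86.6 and 141 CPM at ZT 14, 147 and 193 CPM at ZT 18, 170 and 258 CPM at ZT 22, 158 and 175 CPM at ZT 2 and 80.06 and 80.09 CPM at ZT 6. The amplitude was 1.05 ± 0.18 and the peak at ZT 21.3 ± 0.66 h (adjusted p = 0.0211). The call was lost without Mu liver ZT 10 replicate 1, ZT 10 replicate 2 or ZT 22 replicate 2, with a highest adjusted p of 0.0693.

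The other 6 genes did not pass in Mu livers, though several had ordered values. The fit used 1 estimate of spread per gene for both arms. Within a time point, the standard deviation of log2 values was 0.16 in Mu and 1.01 in Hu livers for Gys2. For Igfbp1 it was 0.64 and 2.12. How far the Hu spread set these Mu p-values was not tested. Gys2 had 285 and 293 CPM at ZT 10 against 85.6 and 106 CPM at ZT 2 (peak ZT 12.7 ± 0.69 h, unadjusted p = 0.0289, adjusted p = 0.110), and passed without Hu liver ZT 18 replicate 3 (adjusted p = 0.0174). Igfbp1 had 2.02 and 4.67 CPM at ZT 14 against 58.4 and 69.3 CPM at ZT 22 (peak ZT 0.68 ± 0.87 h, unadjusted p = 0.0390, adjusted p = 0.133). Pck1 had 2170 and 2422 CPM at ZT 10 against 220 and 349 CPM at ZT 18 (peak ZT 8.57 ± 1.26 h, adjusted p = 0.286). Pklr, Slc2a2 and G6pc had adjusted p-values of 0.290, 0.708 and 0.924. The highest mean in these Mu livers was at ZT 10 for Pck1 and Gys2, at ZT 14 for Ppp1r3b and at ZT 22 for Ppp1r3c and Igfbp1.

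In Hu livers none of the 8 genes passed the edgeR rhythm test, where 0.167% of all genes did. At an unadjusted p under 0.05 the count was 1 of 8, Ppp1r3b, against 15.8% of all genes, and DESeq2, which called 516 of all 14977 genes, called Ppp1r3b and no other of the 8. Ppp1r3b held 19.2 to 36.4 CPM in the 6 Hu livers of ZT 2 and 6 and 117 and 141 CPM at ZT 10, then 76.4 and 109 CPM at ZT 14, 31.6 to 116 CPM at ZT 18 and 39.0 and 58.6 CPM at ZT 22. Values of 117 CPM or more were thus seen at ZT 10, where Mu livers still stood at 77.9 and 102 CPM. The fitted peak was at ZT 14.2 ± 1.10 h with an amplitude of 1.07 ± 0.24 (unadjusted p = 0.000737, edgeR adjusted p = 0.0955, DESeq2 adjusted p = 0.00756). It passed the edgeR test without Hu liver ZT 2 replicate 2, ZT 18 replicate 2 or ZT 18 replicate 3, with a lowest adjusted p of 0.0355. The human share of counts also differed by hour in these livers. It was 66.3 to 81.3% at ZT 10 and 14 and 53.7 to 93.1% at ZT 18. At ZT 2 and 6 it was 15.9 to 73.9%, and at ZT 22 it was 42.7 and 52.5%. The part of human share in this peak, or in the phase difference between the arms given below, was not tested.

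The difference in rhythm between the arms was tested directly. None of the 8 genes passed in edgeR, where 1.28% of all genes did, and 2 had an unadjusted p under 0.05 (21% of all genes), Ppp1r3b and Igfbp1. With no term for human share, the fitted peak of Ppp1r3b was 3.78 ± 1.27 h earlier in Hu livers (phase difference -3.78 h, unadjusted p = 0.00204, edgeR adjusted p = 0.0787), and DESeq2 gave an adjusted p of 0.0125 in a test that called 1129 of all 14977 genes. For Igfbp1 the values were 0.0320 and 0.198. For the other 5 genes besides Ppp1r3c (adjusted p = 0.275) the adjusted p-values ran from 0.468 to 0.969. Fitted phases in Hu livers had jackknife SEs of 2.24 to 11.3 h for the 7 genes other than Ppp1r3b, so no phase is read from them. The median amplitude of the 8 genes was 0.88 in Mu and 0.44 in Hu livers, and that of all tested genes 0.27 and 0.20.

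Single Hu livers carried distinct sets of levels. At ZT 10, replicate 1 held 1108 CPM of Igfbp1, 288 of Pklr, 358 of Slc2a2, 39.2 of Ppp1r3c and 92.1 of Pck1. Replicate 2 of the same hour held 26.4 CPM of Igfbp1, 35.5 of Pklr, 191 of Slc2a2, 94.2 of Ppp1r3c and 861 of Pck1. Igfbp1 and Pklr were thus higher and Pck1 and Ppp1r3c lower in the first than in the second, by amounts that exceeded the whole range of the Mu livers for Igfbp1. The human share was 66.3% and 81.3% in the 2 libraries. The Hu liver of ZT 18 replicate 3, with 93.1% human counts and 7.70 M mouse counts, had the lowest value of its arm for Pck1, G6pc, Gys2, Pklr and Igfbp1.

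The level of each gene was then set against the human share of the library over the 15 Hu livers, with the time of day in the model. Per 10 percentage points of human share, the log2 level fell by 0.66 ± 0.24 for Pck1 (adjusted p = 0.0412), by 0.56 ± 0.14 for G6pc (0.00639), by 0.36 ± 0.10 for Slc2a2 (0.0102) and by 0.31 ± 0.10 for Gys2 (0.0273). These 4 of 8 compare with 18.8% of all 13879 tested genes that fell and 41.7% that passed in either direction, and the median slope of all genes was -0.01. Slopes of -0.37 for Pklr (adjusted p = 0.0501), -0.25 for Ppp1r3c (0.0900), -0.44 for Igfbp1 (0.173) and -0.11 for Ppp1r3b (0.472) did not pass. G6pc held 133 to 180 CPM in the 4 livers of 15.9 to 42.7% human counts and 11.4, 22.1 and 26.6 CPM in the 3 livers of 79.8 to 93.1%. Wider sets overlapped, with 72.5 to 180 CPM in the 5 livers of 15.9 to 52.5% and 11.4 to 147 CPM in the 5 of 67.9 to 93.1%. Ppp1r3b held 19.2 to 58.6 CPM in those 4 livers and 31.6 to 117 CPM in those 3, with no such fall. Its medians in the 2 sets of 5 were 27.7 and 76.4 CPM. These sets also differ in hour. The 4 livers were of ZT 2, 6 and 22 and the 3 livers of ZT 10, 14 and 18. The 5 of lower share were of ZT 2, 6 and 22 and the 5 of higher share of ZT 2, 10, 14 and 18. The slope of Ppp1r3b was 0.18 without time in the model (adjusted p = 0.263) and 0.21 relative to the 11 hepatocyte genes (0.0881). The slope of Pck1 lost its call in 8 of the 15 fits that left out 1 liver and that of Gys2 in 3. The slope of G6pc passed in all 15 fits that left out 1 liver (highest adjusted p = 0.0179). The number of genes called dropped from 4 to 1 without Hu liver ZT 2 replicate 2 and to 2 without ZT 18 replicate 3. Without time in the model it was 2, G6pc (-0.49, adjusted p = 0.00355) and Ppp1r3c (-0.24, 0.0289), and the slopes of Pck1 (-0.19, 0.446), Slc2a2 (-0.12, 0.315) and Gys2 (-0.16, 0.155) lost their calls. Relative to the 11 hepatocyte genes it was 2, Pck1 (-0.37, adjusted p = 0.0270) and G6pc (-0.24, 0.0402). On that last scale Slc2a2 had a slope of 0.03 (0.827).

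**Figure D3:**
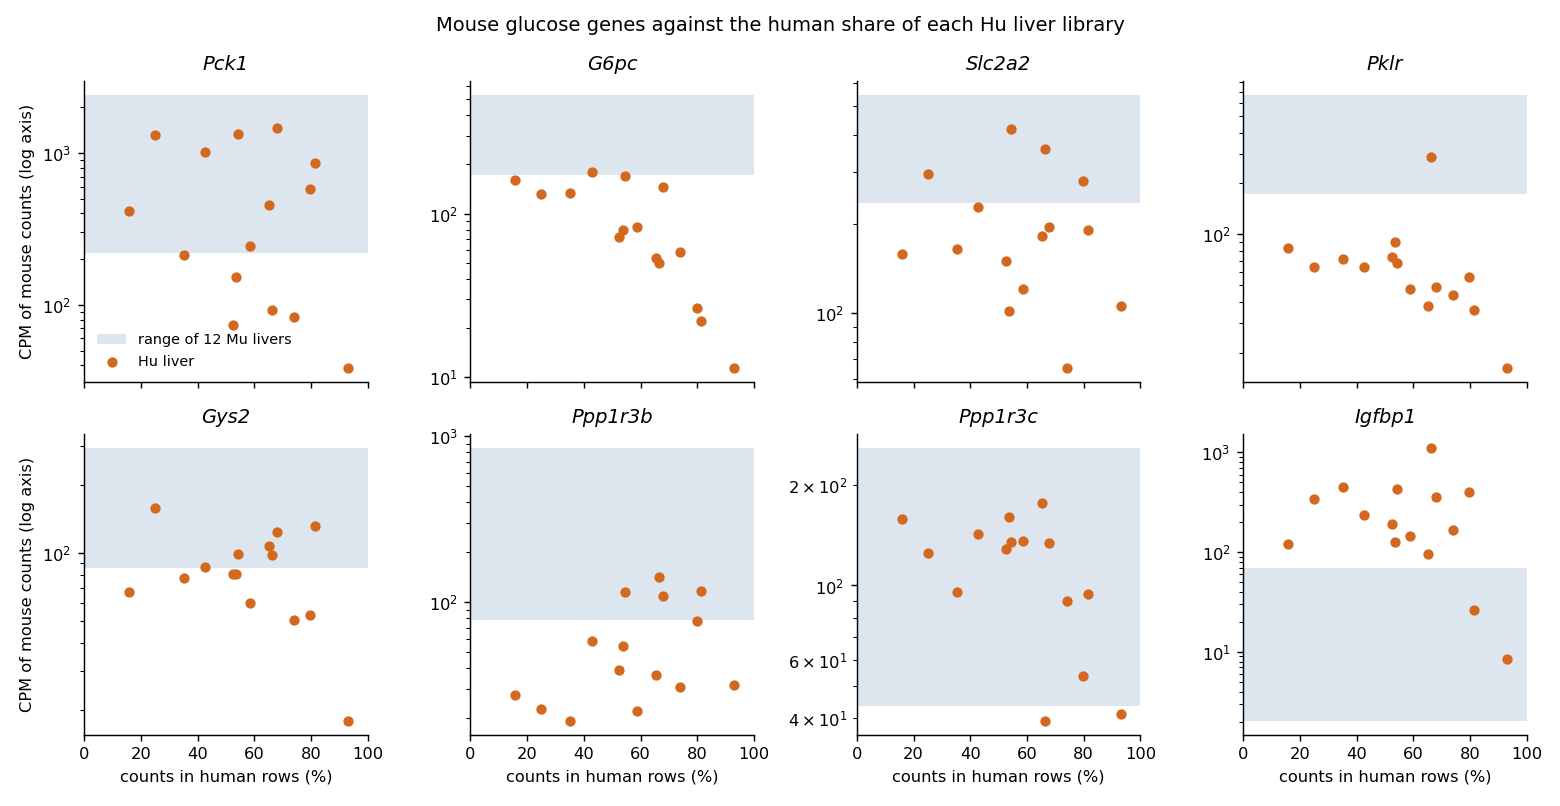
CPM of mouse counts (log axis) against the percentage of counts in human rows for each of the 15 Hu livers, 1 panel per gene, with the range of the 12 Mu livers as a band. G6pc lies at 133 to 180 CPM in the 4 livers of 15.9 to 42.7% and at 11.4 to 26.6 CPM in the 3 livers of 79.8 to 93.1%. Its ranges overlap between the 5 livers of 15.9 to 52.5% (72.5 to 180 CPM) and the 5 of 67.9 to 93.1% (11.4 to 147 CPM). Ppp1r3b has medians of 27.7 and 76.4 CPM in these 2 sets of 5. The sets compared also differ in the hour of the day. Igfbp1 stays above the Mu band except in the 2 livers with the highest shares.

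Genes with the most similar levels over livers were found by Pearson's r of log2 CPM over the 12 Mu livers among 14976 other genes. This is a description, since all values of a library share its depth and scaling. Differences between livers of one hour enter r as well as the time of day, so a high r need not mean a shared time course. For Gys2 they were Coq10b (0.97), the clock gene Per1 (0.97) and the clock-controlled Ciart (0.97). For Ppp1r3b they were Palld, Eif4e and Dusp1 (0.98, 0.98 and 0.97), and for Ppp1r3c Dusp6, Chka and Pnkd (0.98, 0.96 and 0.96). For Pklr they were Nat8f7, Vegfa and Elovl6 (0.96, 0.95 and 0.95), and for Pck1 Mlkl, Gnat1 and Ifit3 (0.95, 0.92 and 0.90). Igfbp1 was nearest to Nck2, Spon2 and Zswim4 (0.94, 0.92 and 0.91), Slc2a2 to Nfix and Dsg1c (0.89 and 0.89), and G6pc to Slc25a15, Elavl1 and Camkk2 (0.81, 0.77 and 0.76). In the 15 Hu livers the same pairs had other values, among them 0.96 for Ppp1r3c with Pnkd, 0.86 for G6pc with Slc25a15, 0.37 for Gys2 with Per1 and -0.07 for Ppp1r3b with Palld.

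The other genes of these pathways were read from lists. Their shares called have to be set against the same background, in which 79.5% of all tested genes passed, 37% lower and 42.5% higher. Of 15 other genes of gluconeogenesis, 11 were lower in Hu livers and 2 were higher. Slc37a4, the transporter that carries glucose-6-phosphate to G6pc, had a median of 132 CPM in the Mu arm and 62.8 CPM in the Hu arm (log2 difference -1.83 ± 0.19). Slc25a11 (-1.14 ± 0.10) and Ldha (-1.16 ± 0.13) were lower too, and the mitochondrial isoform Pck2 was higher (1.14 ± 0.13, medians of 3.56 and 10.9 CPM).

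Of 28 genes of glycolysis and fructose use, 16 were lower and 8 higher. Pfkfb1 (-2.77 ± 0.21), which makes and removes fructose-2,6-bisphosphate, and Pdp2 (-1.94 ± 0.12) were lower. Pfkp (2.37 ± 0.17), Pfkfb4 (1.83 ± 0.18) and Aldoa (0.86 ± 0.10), which are not liver-specific forms, were higher. Scaled values of these genes move with the scaling as the 8 genes above do.

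The 25 tested other glycogen genes split into 9 lower, 9 higher and 7 without a call. The liver glycogen phosphorylase Pygl had medians of 561 and 151 CPM (-2.39 ± 0.18), and the brain form Pygb had 5.98 and 47.7 CPM (2.24 ± 0.14). Ppp1r3e, Gsk3b and Ppp1r3g were rhythmic in Mu livers (adjusted p = 0.000448, 0.00382 and 0.0138), with peaks at ZT 16.98, 17.6 and 7.49. Ppp1r3e and Ppp1r3g encode further glycogen targeting subunits. In all, 6 of these 25 genes passed the rhythm test in Mu livers, where 17.3% of all tested genes did.

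Of 30 genes of hormone and transcription control, 21 were lower and 5 higher in Hu livers, and 8 passed the rhythm test in Mu livers, again beside 17.3% of all tested genes. Srebf1, a lipogenic transcription factor driven by insulin, had medians of 589 and 204 CPM (-1.97 ± 0.17) and peaked at ZT 16.7 in Mu livers (adjusted p = 0.00232). Pik3r1 and Foxo3 of the insulin signal were rhythmic with peaks at ZT 16.1 and 13.4 (adjusted p = 0.000591 and 0.00192). Akt2 (-1.08 ± 0.07), Prkaca (-0.73 ± 0.05) and Cebpa (-1.62 ± 0.14) were lower and Sik1 (0.94 ± 0.16), Creb1 (0.45 ± 0.10) and Akt1 (0.27 ± 0.08) higher in Hu livers. These are values after TMM scaling. In CPM, Prkaca had near-equal medians of 61.3 in Mu and 57.9 in Hu livers, with overlapping ranges of 54.2 to 68.8 and 39.7 to 84.4.

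Of 10 other sugar transporters 5 were higher and 4 lower, with Slc2a1 at 10.3 and 38.9 CPM (1.23 ± 0.13) and Slc2a3 at 0.615 and 1.83 CPM (1.38 ± 0.19) among those higher. In the list of insulin-like growth factors and their partners, 4 of 11 were higher and 5 lower. The receptor Igf1r (2.08 ± 0.20) and Igfbp7 (1.30 ± 0.23) were higher, while Igfbp4 (-1.72 ± 0.13), the growth hormone receptor Ghr (-2.43 ± 0.18) and Igfals (-2.96 ± 0.25) were lower, and Igfbp1 differed in direction from these last 3.

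**Figure D4:**
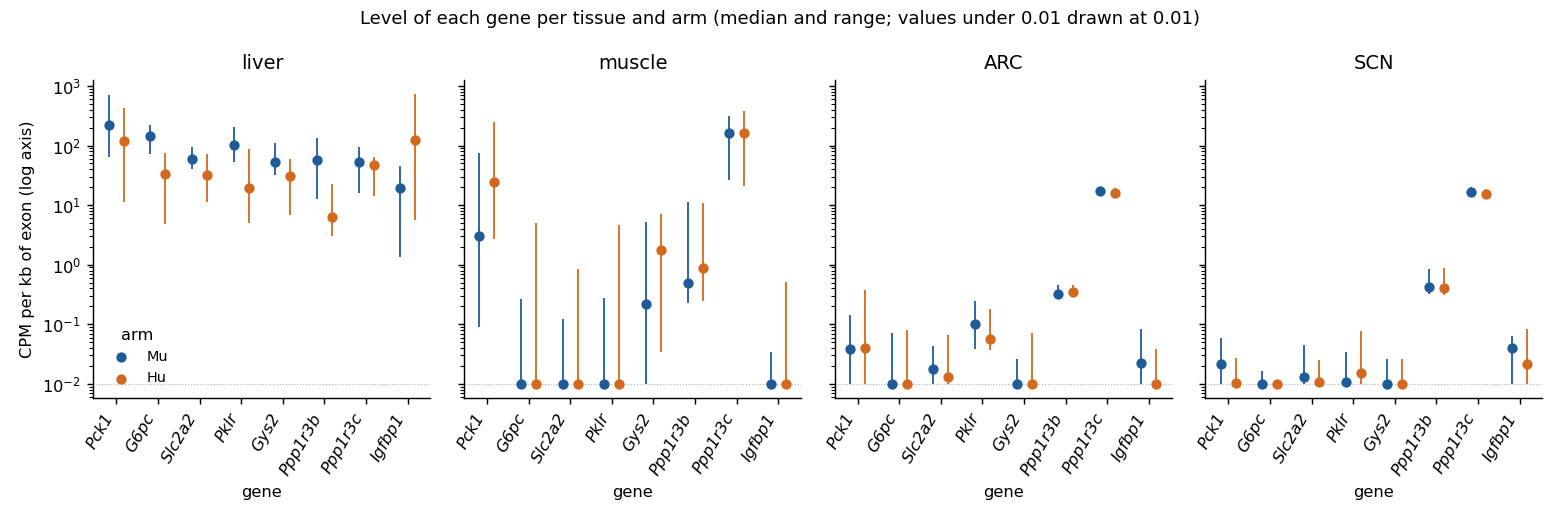
Level of each gene in CPM per kb of exon (log axis) in liver, muscle, ARC and SCN, as median (point) and range over libraries (line), for Mu and Hu. Ppp1r3c is the one gene of the 8 with 10 or more CPM per kb at the median of every tissue, and the medians of G6pc, Slc2a2, Pklr and Igfbp1 outside liver are near 0.

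Outside liver, 4 of the 8 genes passed the filter on low counts in skeletal muscle (Pck1, Gys2, Ppp1r3b and Ppp1r3c) and 2 in ARC and SCN (Ppp1r3b and Ppp1r3c). Ppp1r3c, which targets the phosphatase to glycogen in many tissues, had median levels of 161 CPM per kb in muscle of both arms, 17.1 and 15.8 in ARC and 16.7 and 15.5 in SCN of Mu and Hu mice, and 52.9 and 47.1 in liver. The 2 tables were scaled apart, so levels across liver and the other tissues are set side by side without a test.

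In muscle, Ppp1r3c was rhythmic in both arms. Mu muscles held 72.4 and 120 CPM at ZT 10, 518 and 631 CPM at ZT 14, 829 and 847 CPM at ZT 18, 734 and 806 CPM at ZT 22, 345 and 358 CPM at ZT 2 and 206 and 269 CPM at ZT 6. Hu muscles held 58.1, 111 and 146 CPM at ZT 6 and already 426 and 696 CPM at ZT 10, then 715 and 858 CPM at ZT 14, 737, 944 and 1044 CPM at ZT 18, 439 and 919 CPM at ZT 22 and 184, 224 and 227 CPM at ZT 2. The trough thus lay at ZT 10 in Mu and at ZT 6 in Hu muscle, and at ZT 10 the arms did not overlap. Peaks were at ZT 19.5 ± 0.74 h (amplitude 1.27, adjusted p = 0.0124) and ZT 16.6 ± 0.92 h (amplitude 1.44, adjusted p = 0.00260), against backgrounds of 5.31% and 7.78% of 14197 genes. The phase difference was -2.85 ± 1.18 h, and the test of a different rhythm gave an unadjusted p of 0.0227 and an adjusted p of 0.305, with 0.0704% of all genes past the threshold. The time-averaged level did not pass (log2 difference 0.10 ± 0.23, adjusted p = 0.789).

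Pck1 and Gys2, 2 of the 4 genes tested, were higher in Hu muscle. In the background 26.9% of genes passed, 13.5% as higher and 2.68% as higher by over 2-fold. Pck1 had 0.306, 10.3 and 258 CPM as its lowest, median and highest value in 12 Mu muscles and 9.20, 84.9 and 857 CPM in 15 Hu muscles (log2 difference 3.62 ± 0.80, adjusted p = 0.00220). Gys2 had 0.0197, 0.591 and 13.8 CPM and 0.0900, 4.62 and 19.2 CPM (2.36 ± 0.73, adjusted p = 0.0207). The arms overlapped for both. Ppp1r3b had medians of 3.09 and 5.52 CPM and a difference that did not pass (0.85 ± 0.55, adjusted p = 0.259), except without Mu muscle ZT 2 replicate 2, which held 69.5 CPM (1.77, adjusted p = 0.00699). Fat cell markers moved in the same direction. Of 6 fat markers 5 were higher in Hu muscle, their summed level was 7.50, 65.4 and 931 CPM as lowest, median and highest in Mu and 95.8, 524 and 2316 CPM in Hu muscle, and none was at or under 0.1 CPM throughout.

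Over libraries, log2 Pck1 and the log2 fat sum had a Pearson's r of 0.97 in 12 Mu and 0.95 in 15 Hu muscles, and Spearman's rho was 0.87 and 0.93. For Gys2 r was 0.92 and 0.95 and rho 0.82 and 0.94. All 4 two-sided permutation p-values of r were 2e-05 or below after Benjamini-Hochberg adjustment (100000 draws, for which 1e-05 is the smallest possible), and those of rho were 0.00189 or below. Without the 2 libraries farthest from the median fat sum, r was 0.93 and 0.96 for Pck1 and 0.91 and 0.96 for Gys2. Within an arm, libraries with more fat marker RNA therefore had more Pck1 and Gys2, and the part of fat in the difference between arms was not tested further.

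**Figure D5:**
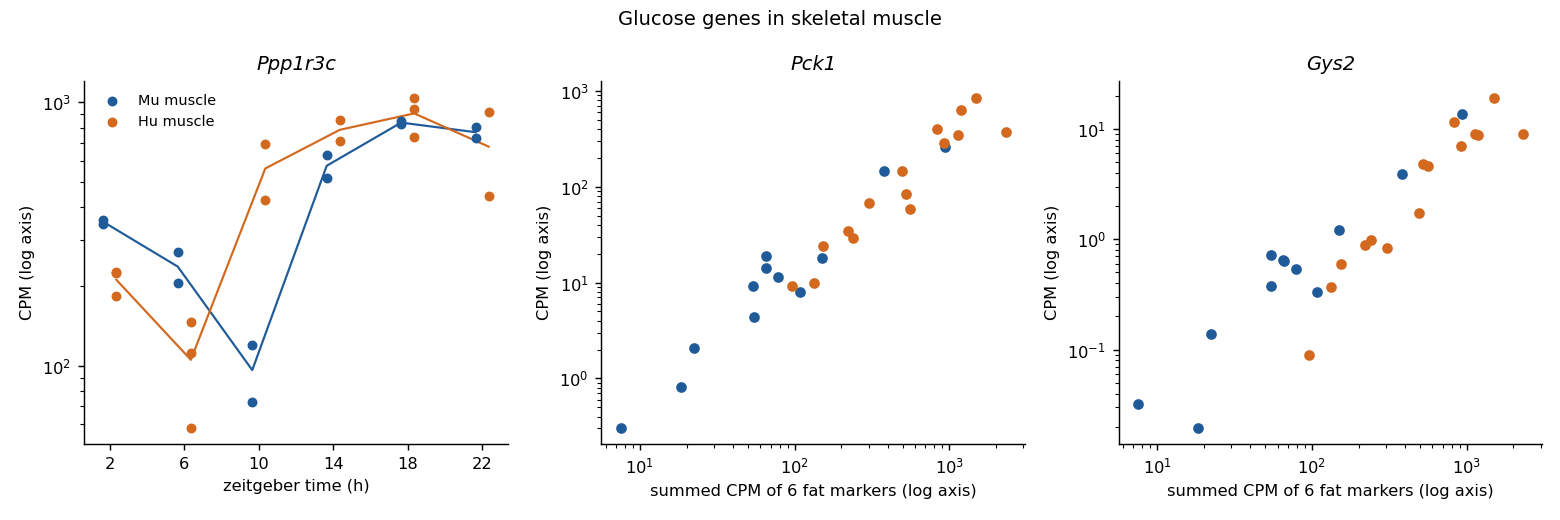
Left, Ppp1r3c in muscle by ZT in hours (CPM, log axis, points are libraries and lines join means). Centre and right, Pck1 and Gys2 against the summed CPM of 6 fat markers in each muscle library (log axes). The Ppp1r3c trough lies at ZT 10 in Mu and ZT 6 in Hu, and Pck1 and Gys2 climb with the fat sum in both arms.

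G6pc, Slc2a2, Pklr and Igfbp1 did not pass the filter in muscle, with medians of at most 0.0180 CPM in either arm. Single libraries stood apart. The Hu muscle of ZT 18 replicate 3 held 12.1 CPM of G6pc (821 counts) and 4.84 CPM of Slc2a2 (327 counts), where no other muscle passed 0.653 and 0.694 CPM. Its Alb level was 0.207 CPM, so the liver marker was near 0. The same library held 669 CPM in sum of 10 kidney proximal tubule genes, a list added after its values were seen, against at most 14.2 CPM in the other 26 muscles, and all 10 were highest in it, Kap at 214 and Slc34a1 at 109 CPM. Their part in the G6pc and Slc2a2 counts was not tested. Without this library the Pck1 and Gys2 differences in muscle were 3.70 and 2.39. The Hu muscle of ZT 6 replicate 1 held 15.1 CPM of Pklr, and no other muscle passed 0.977 CPM.

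In the brain nuclei the levels were low and even. Ppp1r3c had 38.8, 46.6 and 49.98 CPM as its lowest, median and highest value in 12 Mu ARC and 37.6, 43.1 and 52.9 CPM in 10 Hu ARC libraries, and 40.2, 45.4 and 54.6 CPM against 39.8, 42.2 and 49.97 CPM in SCN. Ppp1r3b had medians of 2.01 and 2.14 CPM in ARC and of 2.68 and 2.56 CPM in SCN. Neither gene passed any test in ARC or SCN, or had an unadjusted p under 0.05 in edgeR, and DESeq2 called neither. In ARC the shares of all genes past the adjusted and the unadjusted threshold were 1.41% and 14.5% for rhythm in Mu, 0.0995% and 5.87% for rhythm in Hu, 0% and 1.78% for a different rhythm and 0.00663% and 4.24% for level. In SCN they were 0.207% and 11.6%, 0.00666% and 5.52%, 0% and 1.4%, and 0% and 2.17%. The log2 differences between arms were -0.06 ± 0.05 (ARC) and -0.06 ± 0.06 (SCN) for Ppp1r3c. Astrocyte markers, whose cells hold most of the brain's glycogen, summed to medians of 1630 and 1635 CPM in ARC of Mu and Hu mice. Pck1, G6pc, Gys2, Slc2a2, Pklr and Igfbp1 had medians of at most 0.330 CPM in ARC and SCN, often at or under 3 counts per library.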

How the data were processed

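Tables of raw counts per gene, as whole numbers with no normalization, were deposited by the authors, 1 for liver (human and mouse Ensembl rows) and 1 for the other tissues. Per the labels' protocols RNA was isolated on silica columns and libraries kept strand. Per the submitters' processing notes STAR was used, and the builds GRCm38, mm10, hg38, GRCh38 and hg19 are named without roles. The counting program, its strand setting and filters are not given in the sources used here. Coordinates come from the GENCODE annotation of GRCm38 and promoters from RefSeq (GRCm38.p6), not from the counts.

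Printed CPM scale a library's mouse counts to a sum of 1000000. Depth limits them, since 3 counts equal 0.0254 to 0.0309 CPM in Mu livers and up to 0.390 CPM in Hu livers, for counting error only. Per tissue, edgeR 4.0.16 (R 4.3.3) was fitted to all mouse genes kept by filterByExpr, with TMM, an intercept per arm and a 24 h cosine and sine per arm. Quasi-likelihood F tests covered rhythm in each arm, a different rhythm and the level (Hu minus Mu), with Benjamini-Hochberg adjustment over all tested genes and a threshold of 0.05. Over Hu livers, human share, cosine and sine were fitted to 13879 genes. TMM factors had medians of 0.755 in Mu and 1.22 in Hu livers, so fitted differences are lower than ratios of printed CPM. Phase and amplitude SEs are jackknives over libraries. Alternatives were DESeq2 1.42.0, other scalings, no filter, the replicate number as a block, time as a factor and leaving out each library. Fits were tested on simulated data.

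The 8 genes, the lists and the tests were chosen with earlier results of these data known. Named genes are the 8, the 3 most similar to each over Mu livers, and from each pathway list up to 3 with the smallest p per direction of level and for Mu rhythm; of these not all are printed, and 2 are not reported here. Tf and Gyg1 of the lists had no row by that symbol. In ARC and SCN, 1 Hu column each at ZT 22 could be tied to its group only. All columns were used. No library repeated another.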

Additional observations from a re-analysis of the deposited data

How the results depend on the processing

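The number of the 8 genes called in liver depended on scaling and tool. Rhythm in Mu (2 genes) became 0 with TMM over all rows (Ppp1r3b adjusted p = 0.0704) and 1 with total counts, with hepatocyte scaling or with time as a factor. Rhythm in Hu (0) became 1 with DESeq2 and 1 with total counts, and a different rhythm (0) became 1 with DESeq2. The level count (7) became 3 with TMM over all rows, where G6pc lost its call too. Reversed log2 differences were 0.0218 for Slc2a2 and 0.73 for Ppp1r3c with TMM over all rows, and 0.25 for Gys2, 0.44 for Slc2a2 and 1.11 for Ppp1r3c with hepatocyte scaling. Pck1, which had no call, also turned positive, to 0.56 and 0.43. The slope count (4) became 2 with hepatocyte scaling, where Slc2a2 reversed to 0.0279, and 2 without cosine and sine. In muscle, rhythm in Mu (1) became 2 with DESeq2 and rhythm in Hu (1) became 3 with no filter. Leaving out 1 library gave 1 to 3 for rhythm in Mu liver, 0 to 1 in Hu liver, 7 to 8 for level, 1 to 6 for the slope and 2 to 3 for level in muscle. Except where a left-out library leaves fewer samples, the cause was not tested. Total counts and mouse counts without TMM were added after the data were seen.

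Libraries of the 2 arms with the same replicate number were only weakly alike on average. Same-numbered livers of the arms had deviations from their group means correlated at 0.115 on average (0.0129 to 0.312, over 0.1 in 7 of 12 pairs). Means were 0.0250 in muscle, 0.130 in ARC and 0.120 in SCN. Where both groups hold 2 libraries, their deviations mirror each other, so the pairs of that hour are not independent. Whether the numbers mark a pairing can therefore not be settled from these values. With the number as a block, the slope count was 0 (G6pc adjusted p = 0.148, all genes 1490 of 5792), and the counts of the 8 genes in the other comparisons were as without it, 2, 0, 0 and 7 in liver.

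Counts over all genes also moved by over 1.5 times. Rhythm in Mu liver (2598) became 81 with TMM over all rows, 85 with total counts, 49 with hepatocyte scaling and 640 with time as a factor, and rhythm in Hu liver (25) became 7568, 8627, 4 and 8, and 516 with DESeq2. A different rhythm in liver (192) became 2, 11, 0 and 11 in the same order, 1129 with DESeq2, 107 with no filter and 111 without TMM. The slope (5792) became 11228 with hepatocyte scaling. Leaving out 1 library gave 1460 to 3559, 8 to 827, 38 to 1009 and 3365 to 6227 for these 4. In muscle it gave 388 to 1110 (Mu), 602 to 1138 (Hu) and 0 to 19 (different rhythm), in ARC 86 to 282 (Mu), 5 to 18 (Hu) and 1 to 2 (level), and in SCN 10 to 56 (Mu), 0 to 3 (Hu) and 0 to 1 (level). DESeq2 gave 1494 for 754, 1703 for 1104 and 158 for 10 in muscle (Mu, Hu, different rhythm), 511 for 213, 87 for 15 and 14 for 1 in ARC (Mu, Hu, level) and 287 for 31, 22 for 1 and 1 for 0 in SCN. Hu rhythm in ARC was 40 with no filter and 5 with the block, and SCN rhythm was 12 (Mu) and 0 (Hu) with the block. The Hu liver with the fewest mouse counts, 7.70 M at ZT 18 replicate 3, held 66 to 816 counts of each of the 8 genes.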
